A study of Mus musculus with 21 samples.

Results

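The Hox genes of the mouse were described across the distal intestine. Hox genes encode homeodomain transcription factors, which bind DNA and set positional identity along the body axis. In mammals they lie in clusters, Hoxa to Hoxd, and the genes that share a number across clusters form a paralog group. Low numbers are generally used towards the head and high numbers towards the tail, and in the gut the highest numbers are known for the hindgut and its end. All rows whose symbol was Hox followed by a cluster letter and a number were taken, which gave 39 genes of the 21441 in the tables. Of these, 11 were Hoxa, 10 Hoxb, 9 Hoxc and 9 Hoxd genes.

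RNA was sequenced from colon and ileum of C57BL6J mice with different forms of VDR, the vitamin D receptor, a nuclear receptor for the hormone 1,25D3. Mice named KO carried Villin-CreERT2 and floxed VDR alleles (f/f), so that the receptor is removed from cells in which the Villin promoter drives the inducible recombinase. The uninjected and treated mice carried the CDX2-VDR transgene. By the labels they have no endogenous VDR and express human VDR in the distal intestine only, so no group is labelled as having the endogenous receptor in the gut epithelium. Treated mice received 3 injections of 1,25D3 at 1 ng per g body weight, 48, 24 and 6 h before the end. The groups were Colon KO (4 libraries), Colon uninjected (4), Colon treated (3), Ileum KO (4), Ileum uninjected (3) and Ileum treated (3), 21 in all, and the mice were 9 to 11 weeks old. The KO and treated mice were male and the uninjected mice were female, except for 1 male in each tissue, so that sex and condition are partly confounded. Age is partly confounded with condition as well: KO mice were 9 to 11 weeks old, uninjected mice 9 to 10 and treated mice 9. A library is named below by its group and number. Nothing in the labels ties a colon to an ileum library of the same animal, and where separate animals are not stated a p-value measures only the spread between these libraries.

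Levels are given as FPKM, a level per transcript length and sequencing depth, scaled across all 21 libraries by median of ratios, because the deposited tables each held 2 groups of 1 tissue and were normalized separately. Between 15548 and 17110 genes were above 0 in a library. The mouse Vdr row stood at 19 to 21.6 FPKM in Colon KO and at 11.6 to 34.7 over all colon libraries; a gene-level value does not show which exons were read, so it does not check the genotype labels. The segments matched their labels: Fabp6, the ileal bile acid-binding protein, was at 4069 FPKM or more in every ileum library and at most 893 in colon, and Car1, a colonic carbonic anhydrase, was at 1352 or more in colon and at most 305 in ileum. The tissue is labelled as epithelium, and the epithelial gene Epcam was at 562 to 2053 FPKM. Smooth muscle genes were present as well, Acta2 at 87.4 to 941 FPKM, as were stromal and leukocyte genes, so the libraries were not of epithelial cells alone. In such bulk samples fewer cells of a type and less RNA per cell cannot be told apart. Genes of the exocrine pancreas, summed over 12 markers, reached 110600 FPKM in Colon uninjected 3, 36010 in Colon KO 2 and 19620 in Colon treated 4, and were at most 1144 in the other 18 libraries. Stromal genes, summed over 8 markers, were highest in Colon treated 2 (1471 FPKM) and Colon uninjected 3 (1281), against 297 to 573 in the other colon libraries.

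In the mm9 build, with GENCODE M1 gene models, the clusters span 96.8 to 174 kb. Hoxa occupies chr6:52105366-52210874 on the minus strand, Hoxb chr11:96055630-96229570, Hoxc chr15:102751534-102867274 and Hoxd chr2:74506367-74603200, all 3 on the plus strand. Hoxb13 stands away from its cluster, at chr11:96055630-96058761, and Hoxa13 (chr6:52207693-52210874) and Hoxd13 (chr2:74506367-74509656) end theirs. The gene models of 9 members overlap another member on the same strand: Hoxa3, whose model spans Hoxa4, Hoxa5 and Hoxa6 and meets Hoxa2, the pair Hoxb7 and Hoxb8, and the pair Hoxd3 and Hoxd4. How reads in such shared stretches were divided is not given in the sources used here, so the levels of these 9 members are less certain. Hoxa11 overlaps the antisense RNA Hoxa11as, and Hoxa3 to Hoxa7 overlap the antisense RNA 2700086A05Rik. The strand used in counting is not stated, so a member and its antisense partner cannot be told apart where they overlap.

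Cdx1 and Cdx2, caudal-type homeodomain factors of the intestinal epithelium, are known regulators of Hox genes, and the transgene here is named for CDX2. The promoters of 22 members were found in RefSeq's GRCm38.p6 table, as 24 stretches of 300 bases that run from 250 bases before a gene's start to 50 after it. A caudal-type motif, TTTATNG on either strand, was present in 10.9% of all 32851 promoters of that length and in 2 of the 24 Hox promoters, those of Hoxb8 and Hoxd4, each with 3 matches that do not overlap each other. Those sequences are shown with the matches in capitals, beside the promoters of Hoxa13 and Hoxd13, which hold no match. Hoxa13, Hoxd13 and also Hoxd4 are described below as higher in colon. The promoter of Hoxc4, described below as higher in ileum, holds no match either. The sequences are printed 5′ to 3′ on the gene's strand.
Hoxb8, chr11:96281655-96281954, plus strand: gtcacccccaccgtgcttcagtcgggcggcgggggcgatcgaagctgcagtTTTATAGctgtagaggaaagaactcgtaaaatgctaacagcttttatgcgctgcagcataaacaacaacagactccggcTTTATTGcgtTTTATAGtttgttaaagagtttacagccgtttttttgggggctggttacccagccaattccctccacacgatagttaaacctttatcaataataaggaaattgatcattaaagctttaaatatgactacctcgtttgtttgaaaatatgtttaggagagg
Hoxd4, chr2:74721728-74722027, plus strand: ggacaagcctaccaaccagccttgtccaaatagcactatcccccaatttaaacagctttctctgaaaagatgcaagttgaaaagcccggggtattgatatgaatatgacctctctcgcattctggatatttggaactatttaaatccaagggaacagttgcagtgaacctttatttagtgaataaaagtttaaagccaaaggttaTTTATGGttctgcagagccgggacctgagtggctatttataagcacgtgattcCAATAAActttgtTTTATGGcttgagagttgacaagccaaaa
Hoxa13, chr6:52260831-52261130, minus strand: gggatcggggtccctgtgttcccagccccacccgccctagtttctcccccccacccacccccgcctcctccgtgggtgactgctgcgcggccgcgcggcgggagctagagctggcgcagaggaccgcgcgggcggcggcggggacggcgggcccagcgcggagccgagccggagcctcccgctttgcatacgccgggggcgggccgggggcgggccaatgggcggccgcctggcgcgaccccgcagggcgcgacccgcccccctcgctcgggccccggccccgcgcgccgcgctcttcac
Hoxd13, chr2:74667975-74668274, plus strand: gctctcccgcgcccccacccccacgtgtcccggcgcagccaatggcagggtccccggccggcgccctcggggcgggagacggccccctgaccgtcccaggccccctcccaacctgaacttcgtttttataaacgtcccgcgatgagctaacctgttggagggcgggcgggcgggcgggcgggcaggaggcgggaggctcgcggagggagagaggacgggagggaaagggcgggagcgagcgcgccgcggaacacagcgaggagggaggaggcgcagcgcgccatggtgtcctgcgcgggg
The base composition differed widely, with 42.3% G and C in the Hoxb8 promoter and 39.7% in that of Hoxd4, against 81% for Hoxa13 and 74.3% for Hoxd13. A posterior Hox motif, TTTACNA on either strand, was in 3 of the 24 Hox promoters (12.5%) and in 8.7% of all. A direct repeat of the kind that nuclear receptors such as VDR bind, searched as GGTCANNNNGGTCA on either strand, was in none of the 24 Hox promoters and in 15 of all 32851. A match or its absence describes these letters in this window only.

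**Figure D1:**
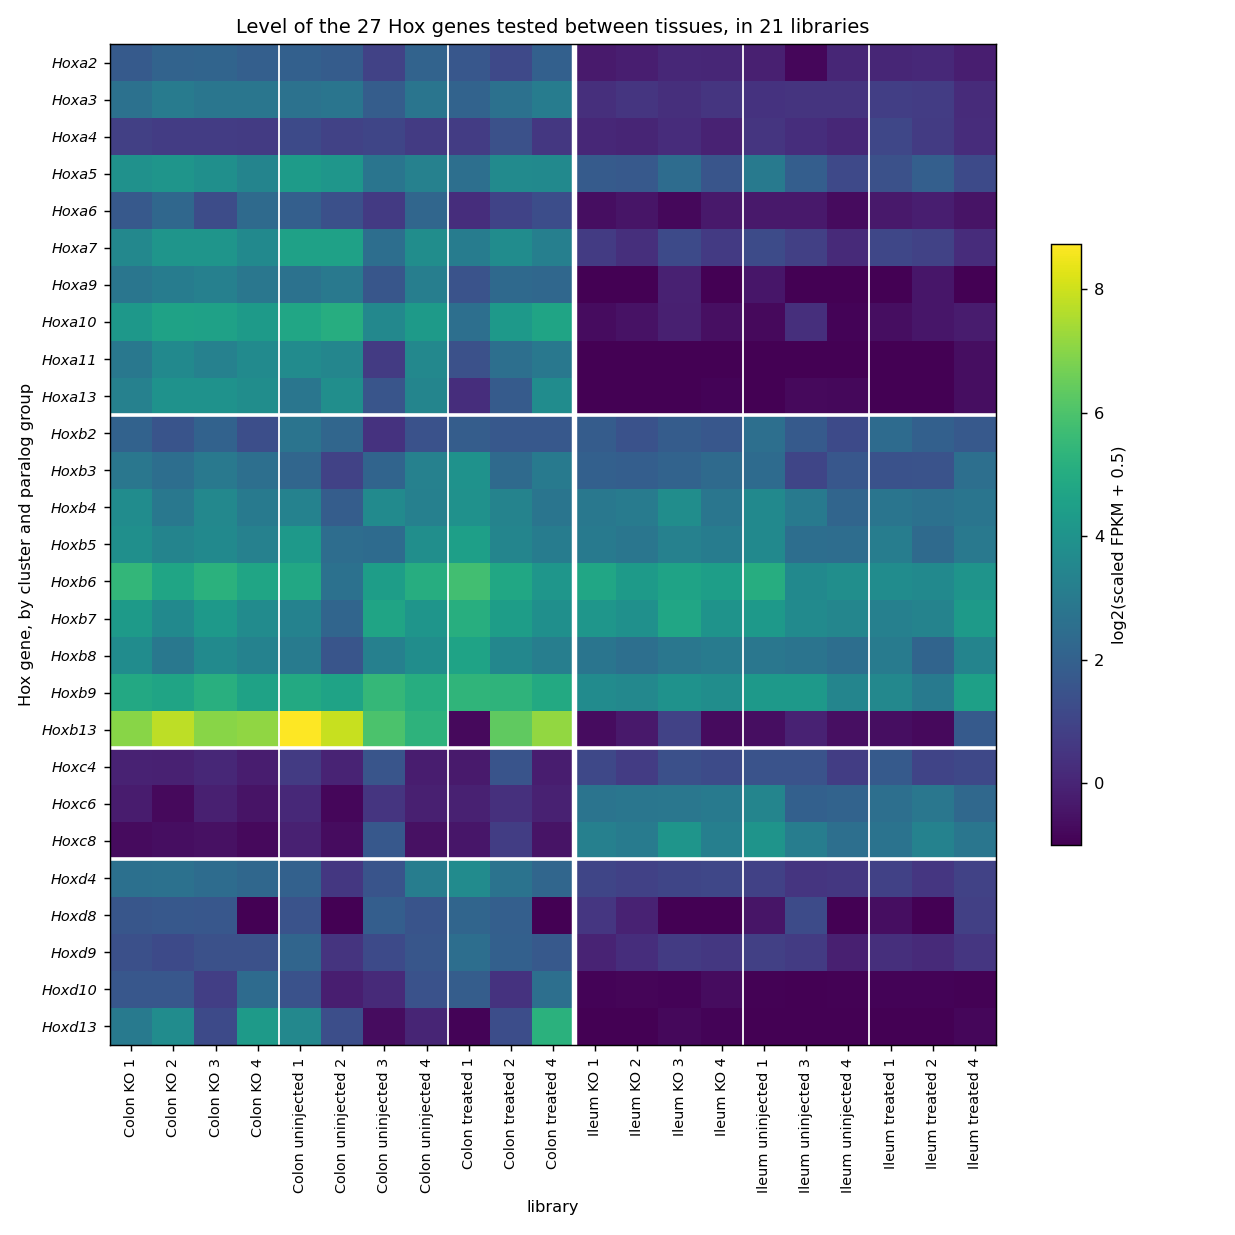
Level of each of the 27 Hox genes tested between tissues (rows, by cluster and paralog group) in each of the 21 libraries (columns, by group), as the colour of log2(scaled FPKM + 0.5). Hoxb13 is the brightest row in colon except in Colon treated 1, where it is at 0.0977 FPKM, and Hoxc6 and Hoxc8 stand out in the 10 ileum libraries.

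In colon, 9 of the 39 members had a median of 10 FPKM or more over the 11 libraries and 25 had 1 or more, whereas in ileum the numbers were 3 and 16 over 10 libraries. The highest medians in colon were those of Hoxb13 (129 FPKM), Hoxb9 (29.8), Hoxb6 (27.2), Hoxa10 (19.5) and Hoxb7 (16.3). In ileum they were those of Hoxb6 (17.5), Hoxb7 (15.0), Hoxb9 (12.8), Hoxc8 (8.49) and Hoxb5 (7.27). Neighbours in these orders overlapped in their range over libraries: Hoxb9 and Hoxb6 in colon spanned 23.8 to 43.7 and 5.71 to 55.3 FPKM, and Hoxb6 and Hoxb7 in ileum 11.7 to 32.9 and 8.9 to 26.4.

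Summed over all members, the Hox genes reached 238 to 678 FPKM in colon (median 376) and 71.2 to 159.8 in ileum (median 103). Paralog groups 9 to 13 supplied 22.7 to 80.3% of that sum in colon (median 59%) and 12.1 to 24.2% in ileum (median 14.7%). The ranges met only through Colon treated 1, the colon library at 22.7%, since the next colon library was Colon uninjected 4 at 46.1%. Groups 4 to 8 supplied 67% to 79.5% in ileum and 15.9 to 66.8% in colon. By cluster, Hoxb supplied most of the sum in every library (61.0 to 79.9%), Hoxa 11.8 to 31.5% in colon and 4.39 to 10.6% in ileum, and Hoxc at most 3.31% in colon and at least 12.3% in ileum. These shares are sums of levels per length, and in colon Hoxb13 alone sets much of them.

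**Figure D2:**
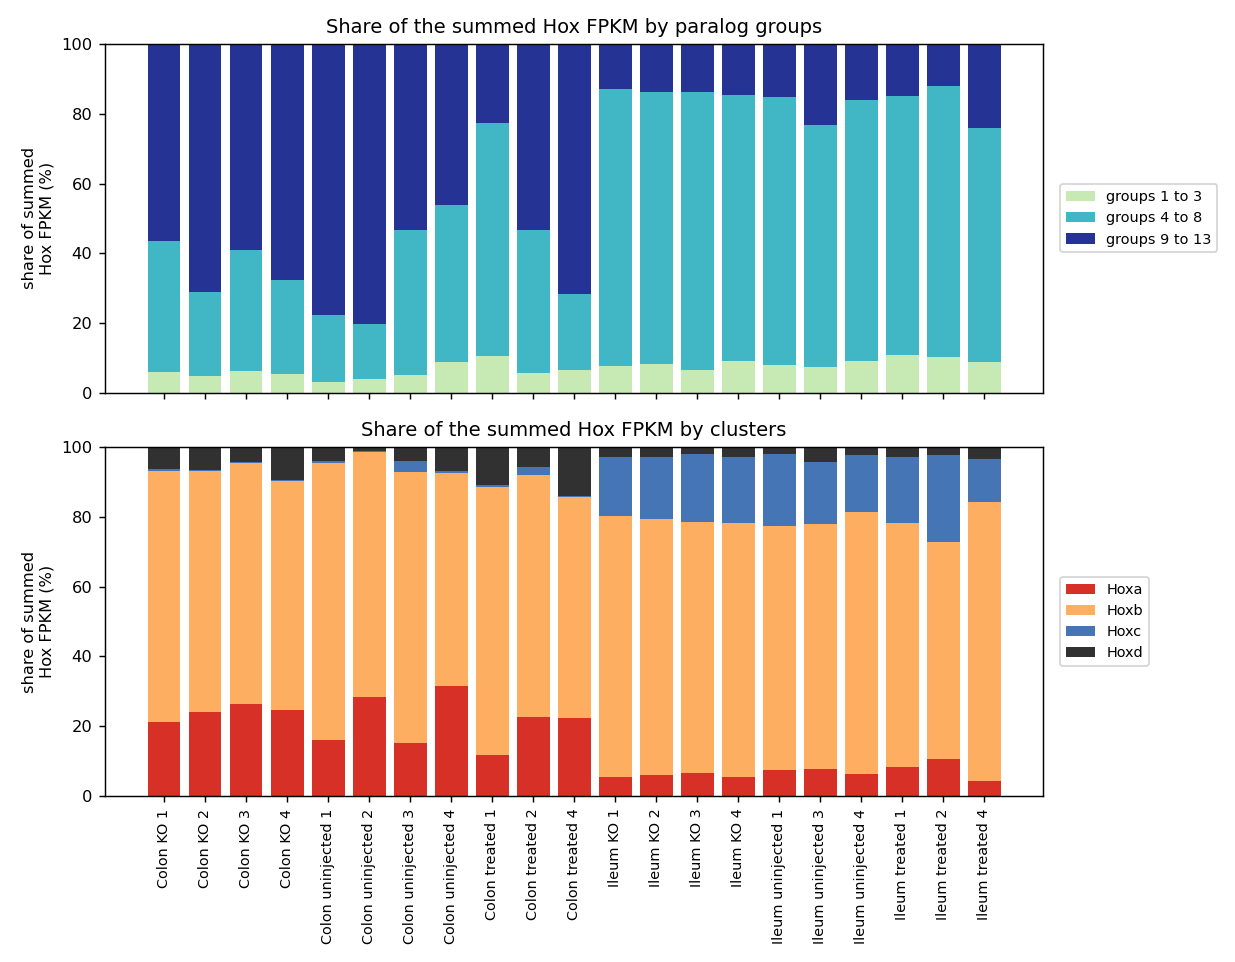
Share of the summed Hox FPKM (y axis, %) in each library (x axis), stacked by paralog groups in the upper panel and by cluster in the lower panel. Groups 9 to 13 make up 22.7 to 80.3% in colon and 12.1 to 24.2% in ileum, and Hoxc is visible as a band of 12.3% or more only in the ileum libraries.

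The comparison of tissues asks which Hox genes separate ileum from colon whatever the VDR status. It was made with limma on log2(FPKM + 0.5), over the 12377 genes whose mean over all libraries was at least 1 FPKM, with Benjamini-Hochberg adjustment over all of them and a threshold of 0.05. Of the 39 members, 27 passed the filter. In the mean over the 3 conditions, 3 of the 27 were higher in ileum and 17 higher in colon. Of all genes tested, 27.4% were called, 14.5% as higher in ileum and 13% as higher in colon. Of the members tested, 10 were Hoxa, 9 Hoxb, 3 Hoxc and 5 Hoxd genes, and those higher in colon were 10 Hoxa, 3 Hoxb and 4 Hoxd genes, while the 3 higher in ileum were all Hoxc. A member with a mean of 1 FPKM or more in only 1 tissue passed the filter through that tissue, which favours a difference, so the count is a description. Among the 11 members with a mean of 1 FPKM or more in each tissue on its own, 5 were higher in colon (Hoxa5, Hoxa7, Hoxb3, Hoxb9 and Hoxd4), and Hoxb2, Hoxb4, Hoxb5, Hoxb6, Hoxb7 and Hoxb8 did not pass the threshold. The median log2 difference, ileum minus colon, was -1.23 over the 27 members and -0.03 over all genes tested. For 12 of the 27 the 11 colon and 10 ileum libraries did not overlap, against 7.43% of all genes tested. Of these 12, 10 had a mean of 1 FPKM or more in 1 tissue only, so the same limit holds for this count and for the median, and Hoxa7 and Hoxb9 were the 2 above it in both tissues.

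**Figure D3:**
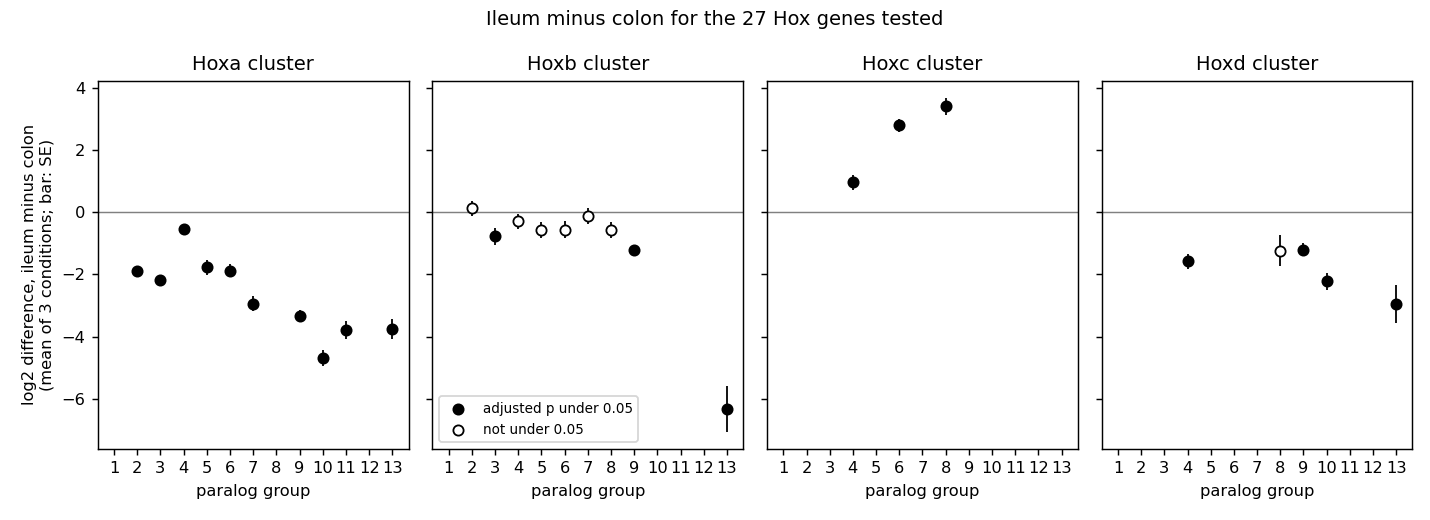
Log2 difference, ileum minus colon, as the mean over the 3 conditions (y axis, with its standard error) for the 27 Hox genes tested, by paralog group (x axis) and cluster (panels). Filled points have an adjusted p under 0.05. Hoxa and Hoxd genes lie below 0, the 3 Hoxc genes above it, and Hoxb2 to Hoxb8 within 0.78 of 0, with Hoxb13 at -6.33.

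The 3 tested members of paralog group 13 were higher in colon. Hoxb13, a hindgut and prostate Hox factor, was at 129, 219.6, 128 and 139.6 FPKM in Colon KO 1 to 4, at 425, 241, 62.5 and 38.2 in Colon uninjected 1 to 4 and at 0.0977, 80.6 and 144 in Colon treated 1, 2 and 4 (values of a group follow in this order throughout). In ileum it was at 0.128, 0.292, 1.39 and 0.103 FPKM in Ileum KO 1 to 4, at 0.146, 0.446 and 0.157 in Ileum uninjected 1, 3 and 4 and at 0.14, 0.097 and 2.85 in Ileum treated 1, 2 and 4. In 10 of 11 colon libraries it exceeded 38 FPKM, and in Colon treated 1 it lay below every ileum library except Ileum treated 2. The log2 difference, ileum minus colon, was -6.33 (SE 0.738, adjusted p 1.32e-06), and -7.16 without Colon treated 1. Such values rest on the added 0.5 where ileum is near 0, and with 0.1 added the difference was -7.26.

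Hoxa13, which patterns the end of the gut together with Hoxd13, was at 9.22, 15.1, 15.1 and 13.1 FPKM in Colon KO, 6.64, 13.5, 2.5 and 10.4 in Colon uninjected and 0.715, 2.98 and 12.7 in Colon treated. In ileum it was listed at 0 in 6 of 10 libraries and at 0.036, 0.0933, 0.0704 and 0.144 FPKM in Ileum KO 4, Ileum uninjected 3, Ileum uninjected 4 and Ileum treated 4. All colon libraries were above all ileum libraries, with a log2 difference of -3.77 (SE 0.324, adjusted p 1.95e-08). Hoxd13 was at 7.62, 12.8, 1.76 and 19.3 FPKM in Colon KO, 11.2, 2.03, 0.131 and 0.511 in Colon uninjected and 0.0375, 1.96 and 36.6 in Colon treated, a span of 974-fold. In ileum it was listed at 0 in 6 of 10 libraries and at 0.0792, 0.0353, 0.0115 and 0.0703 FPKM in Ileum KO 3, Ileum KO 4, Ileum uninjected 4 and Ileum treated 4. Its tissues overlapped through Colon treated 1, and the log2 difference was -2.95 (SE 0.611, adjusted p 0.000905). The remaining member of the group, Hoxc13, was at most 0.0894 FPKM in any library, so that group 13 of the Hoxc cluster was near or at 0 in both tissues.

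The Hoxa genes of groups 9 to 11 were likewise higher in colon. Hoxa10 was at 17.9, 23.9, 23.5 and 19.5 FPKM in Colon KO, 26.3, 33.1, 11.2 and 19.2 in Colon uninjected and 5.34, 18.6 and 25.2 in Colon treated, against 0.126, 0.194, 0.396 and 0.153 in Ileum KO, 0.0863, 0.739 and 0.0399 in Ileum uninjected and 0.138, 0.258 and 0.345 in Ileum treated. The tissues stood apart, with a log2 difference of -4.68 (SE 0.246, adjusted p 2.23e-11). Hoxa11 was at 6.92, 11.9, 9.25 and 12.2 FPKM in Colon KO, 12.3, 10.5, 1.1 and 11.1 in Colon uninjected and 2.18, 5.34 and 6.98 in Colon treated, and in ileum it was listed at 0 in 7 of 10 libraries and at 0.00965, 0.0126 and 0.135 FPKM in Ileum KO 4, Ileum uninjected 4 and Ileum treated 4. Hoxa9 was at 6.48, 8.05, 8.97 and 6.7 FPKM in Colon KO, 5.94, 7.18, 2.54 and 8.39 in Colon uninjected and 2.31, 4.54 and 4.22 in Colon treated, and in ileum it was listed at 0 in 7 of 10 libraries and at 0.418, 0.253 and 0.262 FPKM in Ileum KO 3, Ileum uninjected 1 and Ileum treated 2. Neither gene overlapped between tissues, and the log2 differences were -3.79 for Hoxa11 (SE 0.303, adjusted p 7.08e-09) and -3.33 for Hoxa9 (SE 0.203, adjusted p 1.75e-10). The lowest colon values of Hoxa11 and Hoxa9 were in Colon uninjected 3 and Colon treated 1 respectively.

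Hoxa2 to Hoxa7 were above 0 in every ileum library but stood lower than in colon. Hoxa7 was at 11.2, 16.2, 16.3 and 11.7 FPKM in Colon KO, 23.3, 23.5, 5.24 and 13 in Colon uninjected and 7.89, 12.9 and 8.8 in Colon treated, and at 1.11, 0.756, 1.75 and 1.06 in Ileum KO, 1.85, 1.31 and 0.615 in Ileum uninjected and 1.59, 1.39 and 0.687 in Ileum treated (log2 difference -2.94, SE 0.236, adjusted p 7.63e-09). Hoxa5 was at 14.9, 16.3, 14 and 10.1 FPKM in Colon KO, 19.8, 16.8, 6.31 and 9.22 in Colon uninjected and 5.43, 12.2 and 11.7 in Colon treated, and at 2.95, 2.78, 4.96 and 2.48 in Ileum KO, 7.27, 3.3 and 1.71 in Ileum uninjected and 2.15, 3.31 and 1.79 in Ileum treated (log2 difference -1.78, SE 0.243, adjusted p 1.01e-05). Hoxa7 libraries did not overlap between tissues, whereas those of Hoxa5 did, through Ileum uninjected 1 at 7.27 FPKM and the colon libraries Colon uninjected 3 and Colon treated 1. Hoxa5, which is known for a role in the mesenchyme of lung and gut, was the highest of the Hoxa genes in ileum.

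Hoxa3 was at 5.76, 7.73, 6.48 and 6.49 FPKM in Colon KO, 5.78, 6.4, 3.2 and 6.34 in Colon uninjected and 3.77, 5.7 and 8.05 in Colon treated, and at 0.746, 0.912, 0.746 and 0.92 in Ileum KO, 0.855, 0.891 and 0.863 in Ileum uninjected and 1.24, 1.16 and 0.634 in Ileum treated. Hoxa2 was at 2.91, 3.73, 3.86 and 3.39 FPKM in Colon KO, 3.47, 3.06, 1.39 and 3.74 in Colon uninjected and 2.65, 1.7 and 3.5 in Colon treated, and at 0.317, 0.38, 0.574 and 0.537 in Ileum KO, 0.406, 0.0662 and 0.534 in Ileum uninjected and 0.521, 0.576 and 0.382 in Ileum treated. Hoxa6 was at 2.83, 4.28, 1.88 and 4.68 FPKM in Colon KO, 3.38, 2.11, 1.09 and 4.19 in Colon uninjected and 0.702, 1.44 and 1.97 in Colon treated, and at 0.136, 0.233, 0.0822 and 0.303 in Ileum KO, 0.291, 0.285 and 0.108 in Ileum uninjected and 0.299, 0.387 and 0.219 in Ileum treated. For Hoxa2, Hoxa3 and Hoxa6, which pattern the hindbrain and trunk in the embryo, every colon library lay above every ileum library. The log2 differences were -2.17 for Hoxa3 (adjusted p 1.13e-09), -1.90 for Hoxa2 (adjusted p 4.1e-08) and -1.88 for Hoxa6 (adjusted p 5.74e-07). Hoxa4, at a median of 1.17 FPKM in colon and 0.678 in ileum, was lower in ileum by limma (log2 difference -0.54, adjusted p 0.0082), although the ranges overlapped and quantile normalization gave an adjusted p of 0.06.

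The central Hoxb genes were expressed in both tissues. Hoxb6, a trunk Hox gene, had a lowest, median and highest value of 5.71, 27.2 and 55.3 FPKM in colon and 11.7, 17.5 and 32.9 in ileum, and its neighbour Hoxb7 4.02, 16.3 and 34.1 and 8.9, 15 and 26.4. Hoxb4 had 3.13, 9.55 and 14.6 FPKM in colon and 3.99, 6.71 and 13.2 in ileum, Hoxb5 4.72, 10.2 and 21.9 and 4.7, 7.27 and 11.8, and Hoxb8 2.48, 9.39 and 24.8 and 3.87, 6.52 and 9.89. Tissues overlapped for all 5 genes and none passed the threshold, with log2 differences from -0.57 (Hoxb5 and Hoxb8) to -0.13 (Hoxb7) and adjusted p from 0.0942 to 0.785. A missed threshold does not show equal levels: scaling each library to the same summed FPKM, which moved the median of all genes to -0.54, put Hoxb4, Hoxb5, Hoxb6 and Hoxb8 at -0.82 to -1.10 with adjusted p of 0.00472 to 0.00876, which relative to that median is -0.28 to -0.56, close to the -0.26 to -0.54 of the reported scaling. Single libraries also moved these calls: Hoxb5 passed without Colon uninjected 3 (-0.67, adjusted p 0.0384) or Ileum uninjected 1 (-0.70, adjusted p 0.041), and Hoxb6 and Hoxb8 without Colon uninjected 2 (-0.74 and -0.72, adjusted p 0.0159 and 0.0123). Hoxb2 was at 0.13 (adjusted p 0.763), and at -0.019 without Colon uninjected 3. Hoxb3 was lower in ileum by 0.78 on the log2 scale (SE 0.263, adjusted p 0.0323), a call that was lost without Colon treated 1 (-0.64, adjusted p 0.0821) and without any of 7 other libraries left out singly.

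Hoxb9, the next gene of the cluster, was at 23.8 to 43.7 FPKM in colon and 7.34 to 22.7 in ileum, the ranges of the 11 and 10 libraries did not overlap, and the log2 difference was -1.22 (SE 0.179, adjusted p 2.27e-05). Within colon Hoxb9 had the smallest spread of all members with a median above 1 FPKM, 1.84-fold from lowest to highest. Hoxb1, at the other end of the cluster, was below the filter, at 0.371 to 2.23 FPKM in colon and 0.504 to 1.33 in ileum.

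The members called as higher in ileum were Hoxc genes. Hoxc8 was at 9.01, 7.8, 16.5 and 8.71 FPKM in Ileum KO, 15.7, 8.27 and 5.42 in Ileum uninjected and 5.95, 9.47 and 6.58 in Ileum treated, against 0.116, 0.15, 0.176 and 0.0996 in Colon KO, 0.419, 0.119, 2.67 and 0.17 in Colon uninjected and 0.25, 1.2 and 0.222 in Colon treated. Hoxc6 was at 6.14, 6.5, 6.84 and 7.63 FPKM in Ileum KO, 10.2, 3.45 and 3.79 in Ileum uninjected and 5.31, 6.68 and 4.35 in Ileum treated, against 0.334, 0.0937, 0.412 and 0.213 in Colon KO, 0.581, 0.0617, 0.932 and 0.412 in Colon uninjected and 0.431, 0.76 and 0.42 in Colon treated. Both trunk genes stood apart between tissues, and their log2 differences were 3.40 for Hoxc8 (SE 0.276, adjusted p 8.68e-09) and 2.79 for Hoxc6 (SE 0.196, adjusted p 1.25e-09). Hoxc4 was called as higher in ileum at a smaller size (log2 difference 0.96, SE 0.25, adjusted p 0.00616) with overlapping ranges, 1.15 to 2.85 FPKM in ileum and 0.32 to 2.46 in colon. Hoxc5 and Hoxc9 missed the filter. With the filter at a mean of 0.1 FPKM they were higher in ileum, by 1.13 and 1.24 on the log2 scale (adjusted p 7.69e-05 and 5.15e-05 by limma). Then 5 members were higher in ileum and 20 higher in colon among 34 tested, against 27.1% of all 15749 genes called. The limit of a filter passed through 1 tissue holds for these counts as well.

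Colon uninjected 3 and Colon treated 2 held the highest colon values of Hoxc4, Hoxc5, Hoxc6, Hoxc8 and Hoxc9, with Hoxc8 at 2.67 and 1.2 FPKM against 0.0996 to 0.419 in the other 9 colon libraries. The same 2 libraries were the highest in stromal genes, at 1281 and 1471 FPKM summed over 8 markers, and Colon uninjected 3 was the highest in pancreatic genes; their part in the Hoxc values was not tested. Without both, the log2 difference was 3.70 for Hoxc8 and 1.26 for Hoxc4. The end of the cluster was near or at 0 in both tissues. Hoxc10 was at 0.317 FPKM or less in every library, Hoxc11 at 0.1 or less, and Hoxc12 was listed at 0 in all 21.

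Of the 5 Hoxd genes tested, 4 were higher in colon. Hoxd10 was at 2.6, 2.61, 1.25 and 4.73 FPKM in Colon KO, 2.24, 0.391, 0.605 and 2.23 in Colon uninjected and 3.19, 0.838 and 5.36 in Colon treated, and at most 0.122 in the ileum libraries (0.0303, 0.0518, 0.0365 and 0.122 in Ileum KO, 0.0258, 0 and 0.0159 in Ileum uninjected and 0.0332, 0.0344 and 0.0243 in Ileum treated). All colon libraries exceeded all ileum libraries, with a log2 difference of -2.22 (SE 0.269, adjusted p 2.19e-06). Hoxd4 was at 5.6, 5.68, 4.99 and 4.26 FPKM in Colon KO, 3.6, 0.984, 2.41 and 8.22 in Colon uninjected and 12.4, 6.03 and 4.13 in Colon treated, and at 1.52, 1.36, 1.53 and 1.62 in Ileum KO, 1.32, 0.928 and 0.991 in Ileum uninjected and 1.32, 0.937 and 1.41 in Ileum treated. Its tissues overlapped only through Colon uninjected 2, and the log2 difference was -1.58 (SE 0.241, adjusted p 3.6e-05). Hoxd9 was at 2.07, 1.8, 2.2 and 2.19 FPKM in Colon KO, 4.07, 0.882, 1.79 and 2.51 in Colon uninjected and 5.25, 3.43 and 2.76 in Colon treated, and at 0.415 to 1.3 over the ileum libraries (log2 difference -1.20, SE 0.199, adjusted p 9.57e-05).

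Hoxd8 was listed at 0 in Colon KO 4, Colon uninjected 2 and Colon treated 4 and stood at 2.32 to 3.97 FPKM in the other 8 colon libraries, although its neighbour Hoxd9 was above 0 in all 11. In ileum it was listed at 0 in 3 of 10 libraries and at 0.943, 0.461, 0.0109, 0.23, 1.86, 0.148 and 1.3 FPKM in Ileum KO 1, Ileum KO 2, Ileum KO 4, Ileum uninjected 1, Ileum uninjected 3, Ileum treated 1 and Ileum treated 4. A value of 0 here may be a failed estimate, and its log2 difference of -1.24 did not pass the threshold (adjusted p 0.076). Hoxd3 and Hoxd11 missed the filter, at 0.286 to 3.58 and 0.152 to 2.29 FPKM in colon, and Hoxd3 was at most 0.38 in ileum while Hoxd11 was listed at 0 in 9 of 10 ileum libraries. Hoxd12 was at most 0.959 FPKM and Hoxd1 at most 0.485 in any library.

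The tissue pattern was then compared between the 3 conditions. In KO mice 2 of the 27 members tested were higher in ileum and 15 higher in colon, where 14.5% of all genes were called, 7.64% as higher in ileum and 6.88% as higher in colon. In uninjected mice the counts were 2 and 12, with 13.3% of all genes called (8.16% and 5.12%), and in treated mice 2 and 12, with 9.22% called (5.65% and 3.57%). As above, a member that passed the filter through 1 tissue favours a difference, so these counts are descriptions too. Hoxc6 and Hoxc8 were the members higher in ileum each time. Hoxa2, Hoxa3, Hoxa5, Hoxa7, Hoxa9, Hoxa10, Hoxa11, Hoxa13, Hoxb9 and Hoxd10 were higher in colon in all 3 conditions. Hoxb13 had log2 differences of -7.44 in KO, -7.41 in uninjected and -4.14 in treated mice (adjusted p 0.000135, 0.000363 and 0.0679). The differences between conditions were tested as interactions. None of the 27 members passed for uninjected minus KO, treated minus KO or treated minus uninjected, where 0.00808%, 0.00808% and 0% of all genes were called. At an unadjusted p under 0.05 by limma there were 0, 2 and 0 members (0%, 7.41% and 0% of those tested). Of all genes there were 131, 213 and 80 (1.06%, 1.72% and 0.646%). Voom on recovered reads also called no member.

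The comparisons within a tissue ask whether Hox levels moved with the VDR genotype or with the hormone. They were fitted within each table by limma with the same filter and adjustment. No member passed the threshold in any of the 6. With so few libraries per group, a missed threshold does not show equal levels. In colon 26 members were tested for uninjected minus KO, 27 for treated minus uninjected and 26 for treated minus KO, where 0.0806%, 0% and 0.296% of all genes were called. In ileum 15, 16 and 16 were tested, with 0.00847%, 0% and 0.0838% of all genes called. At an unadjusted p under 0.05 by limma there were 0, 0 and 5 members in colon, against 572, 143 and 911 genes in all. In ileum there were 0, 0 and 1, against 640, 97 and 438. For treated minus KO in colon that was 19.2% of the members tested, against 7.29% of all genes tested. For treated minus KO in ileum it was 6.25%, against 3.67%. In the other comparisons the share of members was 0%, below that of all genes. A difference between these shares was not tested. Voom on recovered reads called no member either.

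**Figure D4:**
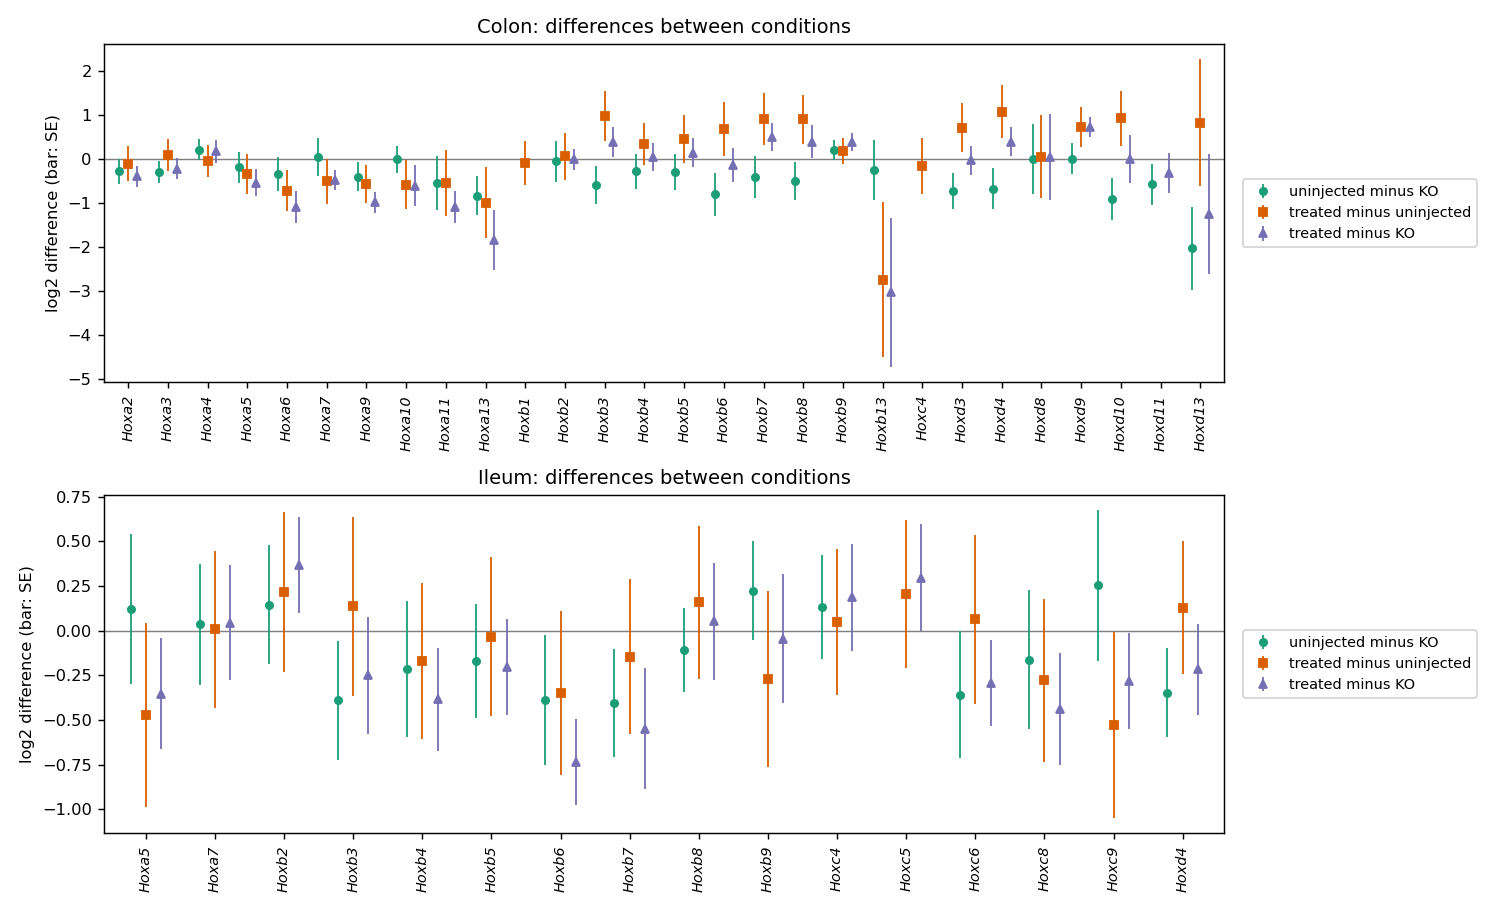
Log2 difference between conditions (y axis, with its standard error) for the Hox genes tested in colon (upper panel) and ileum (lower panel), with a marker for each comparison. No point has an adjusted p under 0.05. The standard errors of Hoxb13 and Hoxd13 in colon are the widest, 1.69 for treated minus KO of Hoxb13.

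For treated against KO colon the smallest p belonged to Hoxa9 and Hoxd9, whose values are given above. Hoxa9 was at 2.31 to 4.54 FPKM in the 3 treated and 6.48 to 8.97 in the 4 KO libraries (log2 difference -0.99, SE 0.247, p 0.00368, adjusted p 0.288 by limma). Hoxd9 was at 2.76 to 5.25 FPKM in treated and 1.80 to 2.2 in KO libraries (log2 difference 0.72, SE 0.233, p 0.0144, adjusted p 0.483 by limma). The groups did not overlap for these 2 of the 26 members tested, against 8.04% of all genes tested. Hoxa6, Hoxa11 and Hoxa13 had log2 differences of -1.09, -1.10 and -1.84 with adjusted p of 0.498, 0.511 and 0.604 by limma. Without Colon treated 1, the library with the lowest Hoxa6, Hoxa9 and Hoxa13, the difference of Hoxa9 was -0.72.

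For uninjected against KO colon the smallest p belonged to Hoxd13 and Hoxd10. Hoxd13 differed by -2.03 on the log2 scale (SE 0.941, p 0.0576, adjusted p 0.721 by limma) and Hoxd10 by -0.92 (SE 0.476, p 0.0847, adjusted p 0.721 by limma), and both groups overlapped. With labelled sex as a covariate they were at -3.09 and -0.18. All Colon KO libraries were male, so these 2 values compare the 1 male Colon uninjected library with KO and do not describe the group. For treated against uninjected colon they were Hoxd4 (1.06, SE 0.603, adjusted p 1 by limma) and Hoxb3 (0.97, SE 0.572, adjusted p 1 by limma), and without Colon treated 1 they were at 0.65 and 0.54. Hoxb3 was at 6.81, 5.3, 7.13 and 5.34 FPKM in Colon KO, 4.18, 1.41, 3.87 and 9.19 in Colon uninjected and 14.9, 4.6 and 7.49 in Colon treated, so that Colon treated 1 was the highest and Colon uninjected 2 the lowest of the 11. Hoxb13 differed by -3.03 for treated minus KO and -2.74 for treated minus uninjected (adjusted p 0.765 and 1 by limma), and by -0.48 and -0.21 without Colon treated 1. That library decided the size of both values.

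In ileum the smallest p for treated against KO belonged to Hoxb6 and Hoxb7. Hoxb6 was at 26.9, 19.1, 24.5 and 21.2 FPKM in Ileum KO, 32.9, 11.7 and 13.5 in Ileum uninjected and 12.8, 11.7 and 15.9 in Ileum treated. Treated libraries lay below KO libraries, as they did for Hoxb4, 2 of the 16 members tested, against 5.01% of all genes tested, and the log2 difference of Hoxb6 was -0.73 (SE 0.24, p 0.0132, adjusted p 0.939 by limma). Hoxb7 was at 16.8, 14.3, 26.4 and 15.6 FPKM in Ileum KO, 18.5, 12.1 and 10.6 in Ileum uninjected and 8.9, 9.65 and 19.3 in Ileum treated, with overlapping groups (log2 difference -0.55, adjusted p 0.939 by limma). For uninjected against KO the smallest p belonged to Hoxd4 (-0.35, SE 0.248, adjusted p 0.665 by limma) and Hoxb7 (-0.40, SE 0.303, adjusted p 0.665 by limma). Hoxd4 was the only 1 of 15 members tested whose groups did not overlap, against 8.61% of all genes tested. For treated against uninjected they were Hoxc9 (-0.53, SE 0.519, adjusted p 1 by limma) and Hoxa5 (-0.47, SE 0.514, adjusted p 1 by limma). Hoxc9 was at 1.35, 0.9, 1.51 and 1.22 FPKM in Ileum KO, 3.51, 1.65 and 0.536 in Ileum uninjected and 1.12, 0.784 and 0.845 in Ileum treated, with Ileum uninjected 1 the highest.

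Some colon libraries stood apart from the others of their group. Among the 26 members with a mean of 1 FPKM or more in colon, Colon treated 1 held the highest colon value of 10 (Hoxb3 to Hoxb8, Hoxd3, Hoxd4, Hoxd8 and Hoxd9) and the lowest of 7 (Hoxa5, Hoxa6, Hoxa9, Hoxa10, Hoxa13, Hoxb13 and Hoxd13). Colon uninjected 2 held the lowest value of 10 (Hoxb3, Hoxb4, Hoxb6, Hoxb7, Hoxb8, Hoxd3, Hoxd4, Hoxd9, Hoxd10 and, at 0 as in 2 other libraries, Hoxd8) and Colon uninjected 3 the lowest of 6 (Hoxa2, Hoxa3, Hoxa7, Hoxa11, Hoxb2 and Hoxb5). The split in Colon treated 1 did not follow the paralog number throughout, since Hoxb9 (41.1 FPKM), Hoxd10 (3.19) and Hoxd11 (1.32) were not low there. In Colon treated 1 Hoxb6 was at 55.3 FPKM, Hoxb8 at 24.8 and Hoxd4 at 12.4, and in Colon uninjected 2 at 5.71, 2.48 and 0.984. Colon uninjected 2 in turn had the highest Hoxa10 (33.1 FPKM) and the second highest Hoxb13 (241). The counts describe these libraries only.

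The 2 segment genes named here were chosen after their values were seen. Osr2, a transcription factor that was at 57.8 to 139 FPKM in ileum and higher there by limma (log2 difference 1.69, adjusted p 0.00297), was at 45.7, 29.7, 39.8 and 26.1 FPKM in Colon KO, 22.7, 1.59, 20.6 and 42.3 in Colon uninjected and 99.1, 20.1 and 28.6 in Colon treated. Its highest colon value was in Colon treated 1 and its lowest in Colon uninjected 2, the libraries with the highest and lowest Hoxb6. Car1 was likewise highest in Colon treated 1 (10470 FPKM) and lowest in Colon uninjected 2 (1352). The summed segment lists did not order the libraries in the same way. The 8 colon genes were highest in Colon KO 1 (12830 FPKM, against 11500 in Colon treated 1) and lowest in Colon uninjected 2 (4999), the 8 ileum genes were highest in Colon uninjected 3 (1211, against 600.1 in Colon treated 1), and the 12 segment factors were highest in Colon treated 1 (374.9) and lowest in Colon uninjected 3 (142.5). Which stretch of colon was taken is not given in the labels, and its part in these values was not tested. Smooth muscle genes, summed over 8 markers of which none was at 0 in any library, were at 7365 FPKM in Colon uninjected 1, 5278 in Colon uninjected 2, 650 in Colon uninjected 3, while the remaining colon libraries spanned 1199 to 2793 (1503 in Colon treated 1).

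**Figure D5:**
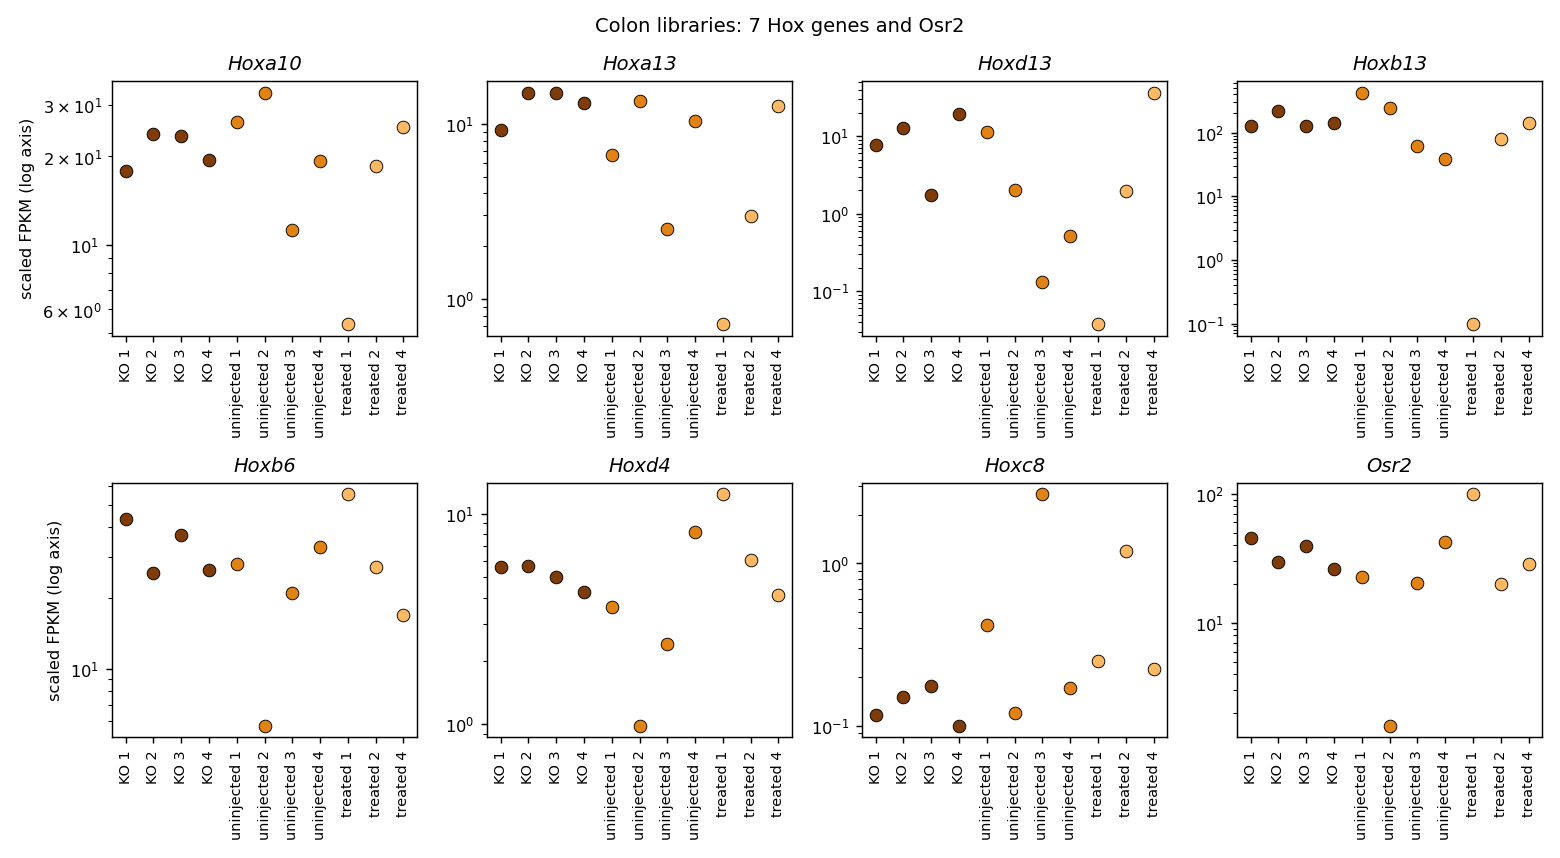
Scaled FPKM (y axes, log scale) of 7 Hox genes and Osr2 in the 11 colon libraries (x axis; dark, middle and light points are KO, uninjected and treated). Colon treated 1 is the lowest library for Hoxa10, Hoxa13, Hoxd13 and Hoxb13 and the highest for Hoxb6, Hoxd4 and Osr2, and Colon uninjected 2 is the lowest for Hoxb6, Hoxd4 and Osr2.

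In ileum, Hoxb13 was above 1 FPKM in Ileum treated 4 (2.85) and Ileum KO 3 (1.39) and at most 0.446 in the other 8 libraries. Ileum treated 4 also held the highest ileal Hoxa11 (0.135 FPKM), Hoxa13 (0.144) and Hoxb9 (22.7), and Ileum KO 3 the highest ileal Hoxd13 (0.0792). Hoxb13 rested on 83 recovered reads in Ileum treated 4 and 27 in Ileum KO 3, against at most 8 in the other 8 libraries. The values of Hoxa11, Hoxa13 and Hoxd13 rested on fewer, 14, 4 and 3 reads. Hoxa10 was highest in Ileum uninjected 3 (0.739 FPKM), and Hoxd10 and Hoxc10 in Ileum KO 4 (0.122 and 0.212). Aqp8, 1 of the 8 colon genes, was at 1.65 FPKM in Ileum treated 4 and 4.59 in Ileum KO 3. It was at most 0.851 in the other ileum libraries, against 29.4 to 261 in colon. The sum of the 8 colon genes was 1885 FPKM in Ileum treated 4 and 2192 in Ileum KO 3, within the 1822 to 2994 of all ileum libraries. A difference as small as that of Aqp8 cannot be seen in this sum. Ang4, 1 of the 8, had a median of 1353 FPKM in ileum and 277 in colon. The part of colon tissue in these values was not tested.

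Transcripts and genes that lie in or beside the clusters were described from a fixed list. The antisense RNA Hoxa11as was at 51.9, 78.1, 60.9 and 54.2 FPKM in Colon KO, 85.4, 69.7, 7.92 and 45.6 in Colon uninjected and 3.71, 34 and 44.9 in Colon treated, and at most 0.514 in ileum (log2 difference -5.85, SE 0.407, adjusted p 1.11e-09). Its lowest colon values were in Colon treated 1 and Colon uninjected 3, as for Hoxa11. The other antisense RNA, 2700086A05Rik, was at 5.5 to 17.7 FPKM in colon and 0.0786 to 0.505 in ileum (log2 difference -3.77, adjusted p 7.88e-12). Both of the 2 noncoding genes tested were called as higher in colon, against 13% of all genes tested. Both passed the filter through colon only, which favours a difference, so the count is a description. The 6 listed microRNA genes were listed at 0 in all libraries.

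Of the 10 flanking genes tested, 1 was higher in ileum, 2 were higher in colon and 7 did not pass, against 27.4% of all genes called. Ttll6 passed the filter through colon only and Skap1 through ileum only, which favours a difference. Ttll6, a tubulin-modifying enzyme gene upstream of Hoxb13 (chr11:95995100-96026765), was at 1.75 to 14.9 FPKM in colon and at most 0.538 in ileum (log2 difference -3.53, SE 0.265, adjusted p 3.14e-09). Skap1, beyond the Hoxb1 end of the same cluster (chr11:96325907-96620791), was higher in ileum, at 2.13 to 4.69 FPKM against 0.452 to 1.09 (log2 difference 1.67, SE 0.151, adjusted p 3.94e-08). It encodes an adaptor protein of T cells, and 6 of 8 leukocyte markers were also higher in ileum, summed at 222 to 546 FPKM against 104 to 274 in colon; their part in Skap1 was not tested. Hibadh, a mitochondrial dehydrogenase gene beyond Hoxa13, was lower in ileum by 0.56 on the log2 scale (adjusted p 0.00037). Evx1, a homeobox gene beside Hoxa13, missed the filter, at 0.032 to 2.78 FPKM in colon with its lowest value in Colon treated 1, and it was listed at 0 in 9 of 10 ileum libraries.

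Known partners and regulators of Hox genes were described from lists as well. None of the 6 TALE homeodomain cofactors tested (Pbx and Meis family proteins that bind DNA with Hox factors) passed the threshold between tissues, with Pbx3 nearest at -0.81 (adjusted p 0.0546). Cdx1 was at 132, 221 and 461 FPKM in colon (lowest, median and highest) and 123, 141 and 326 in ileum, and Cdx2 at 88.1, 138 and 227 and 122, 148 and 241. Neither passed, at -0.45 (adjusted p 0.194) and 0.25 (adjusted p 0.375). Of 17 Polycomb genes tested, which keep silent Hox genes repressed, 2 were lower in ileum, Phc1 (-0.86, adjusted p 0.00188) and Pcgf2 (-0.45, adjusted p 0.0323), and 15 did not pass. Of 8 Trithorax genes and H3K27 demethylases tested, which oppose that repression, 1 was higher in ileum, Kdm6b (0.59, adjusted p 0.0151). Of 7 genes of the retinoic acid and Tgf-beta axis tested, 3 were higher in ileum, among them the retinal dehydrogenase gene Aldh1a3 (1.45, adjusted p 0.000101) and Zfp703 (0.84, adjusted p 0.000455), and 2 were higher in colon, the receptor gene Rarg (-0.96, adjusted p 0.000608) and Tgif1 (-0.57, adjusted p 0.00179). All values in this paragraph other than the levels are log2 differences, ileum minus colon, by limma. The median log2 differences of the lists lay between -0.24 and 0.56, against -0.03 for all genes tested.

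Of 9 segment transcription factors tested, 6 were higher in ileum and none higher in colon, led by Gata5 (log2 difference 5.10, adjusted p 1.7e-13 by limma), a factor of the small intestine, and Hnf4g (2.68, adjusted p 8.53e-07 by limma). Of all genes tested, 14.5% were called as higher in ileum. Gata5 and its relative Gata4 passed the filter through ileum only, which favours a difference.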

How the data were processed

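Poly(A) RNA of colon and ileum was sequenced, and the FPKM values were deposited by the authors in 6 tables of 21441 genes, each with 2 groups of 1 tissue. Per the labels' protocols, CLC Genomics Workbench was used for mapping; mm9, kallisto 0.45.0, DESeq 1.14.0 and DESeq2 are named in the submitters' processing notes without a role. The counting strand is not given in the sources used here.

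Groups came from the labels and the column names; the series' design text gives the sizes of the colon uninjected and treated groups the other way round. Values were scaled by median of ratios, within a table for conditions and over all 21 libraries for tissues and for the levels printed. Differences were tested with limma 3.58.1 (R 4.3.3) on log2(FPKM + 0.5), keeping genes whose mean reached 1 FPKM, with an intensity trend and Benjamini-Hochberg adjustment over all genes tested, at 0.05. A log2 difference on this scale understates the change of low genes. The fits were checked on simulated data. Fewer 2-fold changes were recovered there for treated minus KO ileum and uninjected minus KO colon than for the comparison of tissues. Whole reads could be recovered for 76.1% of 19057 genes (within 0.001 reads), so depth is an estimate, and voom on them was an alternative.

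Values in every library are given for the members with the largest tissue difference past the threshold and for the 2 members with the smallest p in each comparison of conditions. For 1 member no value of its own is reported here. The members and lists were chosen with earlier results of these data known. Other alternatives were the pseudocount, the filter, the scaling, labelled sex, and leaving out single libraries or those high in pancreatic or stromal genes, the last 2 sets chosen after seeing the data.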

Additional observations from a re-analysis of the deposited data

Results flagged for a closer look

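Among 68 sets of values (a Hox gene in a group of 4 libraries), 4 held a library whose gap to the nearest other exceeded Dixon's 95% limit; chance alone flags about 1 in 20. Hoxa11 was at 1.1 FPKM in Colon uninjected 3, against 10.5 to 12.3 in the other 3 libraries of the group. Hoxb13 was at 219.6 FPKM in Colon KO 2, against 128 to 139.6. Hoxc8 was at 16.47 FPKM in Ileum KO 3, against 7.80 to 9.01. Hoxd8 was listed at 0 in Colon KO 4, against 2.57 to 2.71 FPKM.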

How the results depend on the processing

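The counts of Hox genes called between tissues, as the mean over conditions, ran from 3 to 5 for higher in ileum and from 16 to 23 for higher in colon over the alternatives. With the filter at 0.1 FPKM and with no filter, 5 and 5 were higher in ileum in the mean (3 as reported), and 5 and 4 in KO mice (2 as reported); more genes were tested there. The replicate numbers were not taken as pairs, because not every same-numbered pair correlated above 0.1: between KO tissues numbers 3 and 4 correlated best with their own number (0.457 and 0.631, against at most 0.105 and -0.0456 with others), while 1 and 2 did not (0.0625 and -0.142), and between Colon KO and Colon uninjected the values for 1 to 4 were 0.0225, -0.00221, 0.00196 and 0.674. With the replicate block, uninjected minus KO colon gave 0 calls. KO ileum minus colon with the block was fitted on the KO libraries alone and gave 3 higher in ileum and 21 higher in colon. The reported 2 and 15 came from the fit of all libraries, so the block and the change of libraries cannot be told apart here. Hoxb2 between tissues was 0.13, and -0.35 at the same summed FPKM (0.16 and 0.19 relative to the median of all genes, so that scaling did not turn it), -0.044 without both pancreas-rich libraries, -0.054 without the 3 libraries highest in pancreatic genes, -0.029 without the 2 highest in stromal genes, and -0.019 to 0.24 with single libraries left out. Hoxb13 for uninjected minus KO colon was -0.26, and 0.24 without both pancreas-rich libraries or without the 3, 0.058 without the 2 stromal ones and -0.85 to 0.31 with single libraries left out. With labelled sex as a covariate it was -1.98, which compares only the 1 male Colon uninjected library with the KO libraries, all male. The cause of these changes was not tested.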
